A study of Mus musculus with 26 samples.

Results

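The genes for 10 subunits of the mouse Polycomb repressive complexes (Ezh2, Ezh1, Eed, Suz12, Jarid2, Ring1, Rnf2, Bmi1, Cbx7 and Cbx8) were chosen by name, out of 21887 protein-coding genes of the annotation. For each, all H3K4me3 peaks overlapping the gene's span plus 5 kb on either side, here called its window, were taken from the Early-B list and from the progenitor list. The windows held 32 peaks of the 48054 in the Early-B list and 22 of the 31414 in the list from progenitors.

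The Early-B cells were Ebf1-/- progenitors given the transcription factor EBF1 as EBF1.ER from the MigR1 vector, then grown for 2 days on OP9 stroma with SCF, FLT3-L, IL-7 and 4-hydroxytamoxifen. EBF1.ER is a fusion to the estrogen receptor, through which tamoxifen controls it. The progenitors were Ebf1-/- cells, for which the labels name no construct. Both groups therefore lacked Ebf1 of their own, and the Early-B cells are a model in which the factor is supplied from a retroviral vector. The culture of the progenitors and the strain and age of the mice are not given in the labels. The series has 26 samples, of which 2 H3K4me3 precipitates and 2 inputs belong to each group in the labels, but 1 peak list per group was analysed. There is thus no replicate check, the read depth behind the lists is unknown, and no difference between lists was tested.

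Trimethylation of histone H3 at lysine 4 (H3K4me3) is carried by nucleosomes at the starts of active and poised genes. Polycomb proteins keep genes silent: Polycomb repressive complex 2 (PRC2) methylates histone H3 at lysine 27, and Polycomb repressive complex 1 (PRC1) ubiquitinates histone H2A and compacts chromatin. In blood, Ezh2 is known for its part in early B cell development and Bmi1 for the self-renewal of stem cells. The peaks describe the H3K4me3 state of the genes that encode these proteins, not where the proteins bind.

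RefSeq promoters of GRCm38.p6, the assembly of mm10, reaching from 250 bases before to 50 bases after the annotated start, were found for 10 of 10 genes. Jarid2 has a pair of annotated starts, which gives 11 promoters. The promoters of Ezh2 and Ezh1 are printed because these paralogs had the widest and the narrowest start peak of the 10 genes, that of Bmi1 because the pileup rank of its start peak differed most between the lists, and that of Cbx7 because a strong Early-B peak without a progenitor partner lay inside the gene. Capitals mark matches, on either strand, to the motifs described after the sequences.
Ezh2 promoter, chr6:47594981-47595280, minus strand: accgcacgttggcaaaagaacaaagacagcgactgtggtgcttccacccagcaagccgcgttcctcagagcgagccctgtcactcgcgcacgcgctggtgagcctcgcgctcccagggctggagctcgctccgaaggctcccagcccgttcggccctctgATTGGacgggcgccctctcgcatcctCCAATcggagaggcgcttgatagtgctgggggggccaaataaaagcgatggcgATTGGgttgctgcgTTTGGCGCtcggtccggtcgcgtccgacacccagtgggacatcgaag
Ezh1 promoter, chr11:101226414-101226713, minus strand: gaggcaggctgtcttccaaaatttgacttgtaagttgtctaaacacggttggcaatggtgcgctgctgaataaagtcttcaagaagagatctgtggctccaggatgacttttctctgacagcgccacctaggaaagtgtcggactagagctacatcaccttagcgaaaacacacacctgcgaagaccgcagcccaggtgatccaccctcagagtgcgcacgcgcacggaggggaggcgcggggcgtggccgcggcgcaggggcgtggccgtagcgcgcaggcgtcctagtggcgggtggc
Bmi1 promoter, chr2:18676768-18677067, plus strand: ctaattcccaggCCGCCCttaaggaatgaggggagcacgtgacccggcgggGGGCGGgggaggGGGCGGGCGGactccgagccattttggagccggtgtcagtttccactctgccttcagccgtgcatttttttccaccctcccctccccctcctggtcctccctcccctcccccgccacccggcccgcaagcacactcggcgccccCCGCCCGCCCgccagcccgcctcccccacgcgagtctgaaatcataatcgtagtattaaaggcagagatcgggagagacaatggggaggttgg
Cbx7 promoter, chr15:79932597-79932896, minus strand: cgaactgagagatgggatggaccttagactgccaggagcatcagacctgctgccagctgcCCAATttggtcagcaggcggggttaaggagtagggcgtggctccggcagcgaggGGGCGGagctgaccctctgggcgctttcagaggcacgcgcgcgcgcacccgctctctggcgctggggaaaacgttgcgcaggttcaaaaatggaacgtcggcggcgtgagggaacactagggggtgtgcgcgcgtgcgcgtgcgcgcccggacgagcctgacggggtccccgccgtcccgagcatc

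All 11 promoters held more CpG than the median promoter. The promoter of Suz12 had 41 CpG in its 300 bases, which was at or above the count in 97.0% of the 32851 promoters in the table, and that of Eed, with 17, had the fewest of the 10 genes. The median was 24 over the 11 promoters and 7 over all promoters. The CCAAT box, written CCAAT, was found in 7 of the 11 promoters, those of Ezh2, Eed, Suz12, Jarid2 (at both starts), Cbx7 and Cbx8, against 37.4% of all promoters. The SP/KLF motif GGGCGG was found in 8 promoters, those of Suz12, Jarid2 (both starts), Ring1, Rnf2, Bmi1, Cbx7 and Cbx8, against 35.7% of all promoters. This motif itself contains a CpG, and the share over all promoters was not matched for CpG number. Bmi1 held 6 matches to it, some of them overlapping, and its promoter held no other motif searched. Ezh2 alone held an E2F motif, TTTGGCGC, present in 0.514% of all promoters; the E2F form TTTCGCGC, present in 0.323%, was in none of the 11. The EBF core CCCNNGGG was found at Eed and at Ring1, where it overlaps a GGGCGG match, against 13.7% of all promoters. The ETS motif CCGGAAGT (3.89% of all promoters), the NRF1 motif GCATGCGC (2.71%) and the YY1 motif AAGATGGC (2.75%) were in none of the 11. The Ezh1 promoter held no motif searched. These matches describe letters in the window and are not binding sites.

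All 10 genes had an H3K4me3 peak in both lists, and in both lists a peak lay at the gene's own start. Over all protein-coding genes, 72.9% had an Early-B peak in the window, 66.2% a progenitor peak, and 64.5% a peak in both. A peak within 1 kb of an annotated start in both lists was found for 54.1% of the genes. The strongest such peak by the authors' −log10 p is called the start peak. Where the table gave no start, for 4395 genes, either end of the span was used.

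**Figure D1:**
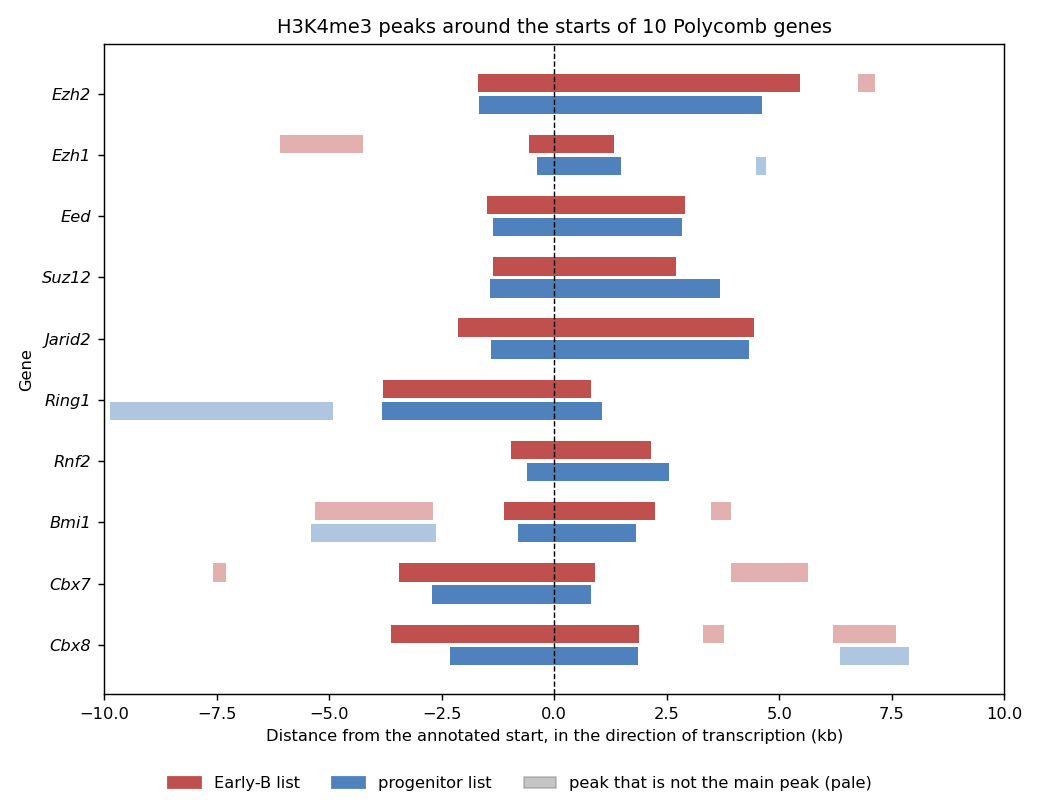
Positions of H3K4me3 peaks within 10 kb of the annotated start of each gene (x axis, kb in the direction of transcription), with the Early-B list in red above the progenitor list in blue and peaks other than the start peak in pale colours. The start peaks of the 2 lists overlap at all 10 genes, and the narrowest is that of Ezh1, 1877 bp in the Early-B list and 1853 bp in the progenitor list.

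Among the PRC2 genes, Ezh2 (chr6:47530274-47595270, minus strand) encodes the methyltransferase typical of dividing cells. Its start peak, chr6:47589569-47596730 in the Early-B list, was 7162 bp wide with a pileup (the authors' read coverage, to be compared within a list only) of 137, and the progenitor peak, chr6:47590415-47596699, was 6285 bp wide with a pileup of 172. The Early-B peak held the whole progenitor peak and ran 5461 bases into the gene, against 4615 bases in the progenitor list. In width, these peaks were at or above 95% of Early-B and 93.9% of progenitor start peaks. The span of the non-coding gene F830010H11Rik begins 179 bases upstream of the Ezh2 start, under the same peaks. A further Early-B peak within Ezh2, 398 bp wide and with a −log10 p of 1.47, met no progenitor peak.

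Ezh1 (chr11:101191115-101226463, minus strand), the paralog that carries the methyltransferase in many resting cells, had the narrowest start peaks. They were 1877 bp wide in the Early-B list (chr11:101225139-101227015, pileup 158) and 1853 bp in the progenitor list (chr11:101224983-101226835, pileup 169), and thus in width at or above 19.1% of Early-B and 23.2% of progenitor start peaks. Its pileup ranked higher, at or above 85.4% of Early-B and 63.1% of progenitor start peaks, so this was a narrow peak of high pileup. The Ezh1 window also took in an Early-B peak of 1836 bp (−log10 p 9.32) that begins 4249 bases outside the span. That peak met a progenitor peak of 664 bp beginning 5168 bases outside the span, just beyond the window. A progenitor peak of 232 bp inside Ezh1, with a −log10 p of 1.21, met no Early-B peak.

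Eed (chr7:89954654-89980976, minus strand), which encodes the subunit that binds methylated lysine 27, had 1 peak in each list. It was 4413 bp wide in the Early-B list (chr7:89978063-89982475, pileup 142) and 4196 bp in the progenitor list (chr7:89978129-89982324, pileup 218). Suz12 (chr11:79993106-80034123, plus strand) encodes the scaffold of the complex and likewise had 1 peak per list, but with the larger width in progenitors. The peak was 4061 bp wide in the Early-B list (chr11:79991752-79995812, pileup 171) and 5108 bp in the progenitor list (chr11:79991680-79996787, pileup 205), with an Early-B over progenitor ratio of 0.795. The difference lay mainly inside the gene, where the peak ran 2706 bases from the start in the Early-B list and 3681 bases in the progenitor list.

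Jarid2 (chr13:44730774-44921643, plus strand), an accessory subunit that helps bring PRC2 to chromatin, had the highest start pileup of the 10 genes in both lists. The start peak was 6593 bp wide with a pileup of 177 in the Early-B list (chr13:44728632-44735224), and 5742 bp wide with a pileup of 249.6 in the progenitor list (chr13:44729372-44735113). It covered both annotated starts in both lists. In pileup it was at or above 94.3% of Early-B and 98.9% of progenitor start peaks.

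Jarid2 also had the most peaks, 12 in Early-B cells and 5 in progenitors. Its window is long, and per 100 kb it held 5.97 Early-B peaks and 2.49 progenitor peaks, against 2.84 and 2.30 over all protein-coding windows. Only 0.567% of protein-coding genes had at least as many Early-B peaks as Jarid2. The peaks covered 17759 bp of the window in the Early-B list and 9413 bp in the progenitor list. Of the 11 Early-B peaks away from the start, 8 met no progenitor peak, with −log10 p between 1.27 and 17.6. The strongest of the 8 was chr13:44810993-44812937, 1945 bp wide with a pileup of 36.7, and it ranked 1995 among 24215 peaks found in the Early-B list alone. A peak inside the gene was shared: it was 2274 bp wide with a −log10 p of 50.6 in the Early-B list (chr13:44799256-44801529), and 2150 bp wide with a −log10 p of 11.4 in the progenitor list (chr13:44799683-44801832). The 1 progenitor peak at Jarid2 that met no Early-B peak was 582 bp wide and had a −log10 p of 1.11.

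Among the PRC1 genes, Ring1 (chr17:34020792-34024680, minus strand) and Rnf2 (chr1:151469398-151500991, minus strand) encode the paired ubiquitin ligases of the complex. The Ring1 start peak was 4627 bp wide in the Early-B list (chr17:34023862-34028488, pileup 119) and 4895 bp in the progenitor list (chr17:34023621-34028515, pileup 162). Most of it lay upstream, 3808 bases in the Early-B list and 3835 bases in the progenitor list, where it covered the neighbouring gene H2-Ke6 and the end of Slc39a7. Ring1 therefore shares these peaks with its neighbours, and its own part in them cannot be told apart. The 5 kb limit decides a further progenitor peak of 4950 bp, which begins 4923 bases outside the span, while the Early-B peak it meets, 4493 bp wide, begins 5063 bases outside.

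In both lists the Ring1 start peak also covers the microRNA precursor Mir219a-1, chr17:34024983-34025092, on the same strand as Ring1 and 303 bases upstream of its start, and Mir219c, which overlaps it on the other strand. The mature sequence of its 5′ arm is printed because the precursor lies under a peak counted here for a Polycomb gene, with the seed, bases 2 to 8, in capitals.
mmu-miR-219a-5p: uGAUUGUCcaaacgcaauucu

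Rnf2 had start peaks of nearly equal width, 3110 bp in the Early-B list (chr1:151498837-151501946, pileup 168) and 3159 bp in the progenitor list (chr1:151498446-151501604, pileup 213). They were offset at both edges, as at Ezh1, the other gene of the 10 with this arrangement. The Early-B peak reached 955 bases upstream of the start, against 613 bases for the progenitor peak. A small shared peak inside Rnf2 was 200 bp wide in the Early-B list and 356 bp in the progenitor list.

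Bmi1 (chr2:18677018-18686629, plus strand) encodes the Polycomb group RING finger protein that pairs with the ligases. Its start peak was 3367 bp wide in the Early-B list (chr2:18675894-18679260) and 2626 bp in the progenitor list (chr2:18676218-18678843). The pileup was 85.7 in Early-B cells and 172 in progenitors. Within their own lists these were at or above 35.6% of Early-B start peaks and 65.0% of progenitor start peaks, the widest gap in rank among the 10 genes. The peaks touch the end of Commd3, the gene just upstream, whose own start peak lies in the window as well. That Commd3 peak was 2614 bp wide with a pileup of 115 in the Early-B list, and 2766 bp wide with a pileup of 190.04 in the progenitor list. A peak at the other end of the window, at Gm46725, was 3568 bp wide in the Early-B list and 1748 bp in the progenitor list. Inside Bmi1, an Early-B peak of 435 bp with a −log10 p of 1.87 had no partner.

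Cbx7 (chr15:79915804-79971143, minus strand) and Cbx8 (chr11:119036303-119040913, minus strand) encode chromodomain proteins that bind methylated lysine 27 and so bring PRC1 to sites marked by PRC2. Cbx7 had the lowest start pileup of the 10 genes in both lists. The start peak was 4366 bp wide with a pileup of 49.3 in the Early-B list (chr15:79931729-79936094), and 3518 bp wide with a pileup of 64.9 in the progenitor list (chr15:79931836-79935353). These were at or above 23.8% of Early-B and 18.6% of progenitor start pileups. Inside Cbx7 an Early-B peak of 1725 bp, chr15:79926997-79928721, lay 3925 to 5649 bases after the start and met no progenitor peak. Its −log10 p was 41.2 and its pileup 60.3, above the 34.5 and 49.3 of the start peak of Cbx7 in the same list, and it ranked 283 among the 24215 Early-B peaks of this kind. A shared peak upstream of the start, yet inside the Cbx7 span, was nearly alike in both lists, 823 bp wide with a pileup of 33.5 in the Early-B list and 922 bp wide with a pileup of 34.4 in the progenitor list. The remaining unpartnered peaks at Cbx7, an Early-B peak of 279 bp and a progenitor peak of 626 bp, had −log10 p of 1.47 and 1.20.

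Cbx8 showed the largest width ratio of the 10 genes, 1.32. Its start peak was 5503 bp wide with a pileup of 78.7 in the Early-B list (chr11:119039027-119044529), and 4182 bp wide with a pileup of 136 in the progenitor list (chr11:119039051-119043232). Almost all of the difference lay upstream, where the peak reached 3616 bases from the start in the Early-B list and 2319 bases in the progenitor list. Downstream it ended 1886 bases from the start in the Early-B list and 1862 bases in the progenitor list. The other Cbx8 peaks were weak, with −log10 p of at most 2.39.

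**Figure D2:**
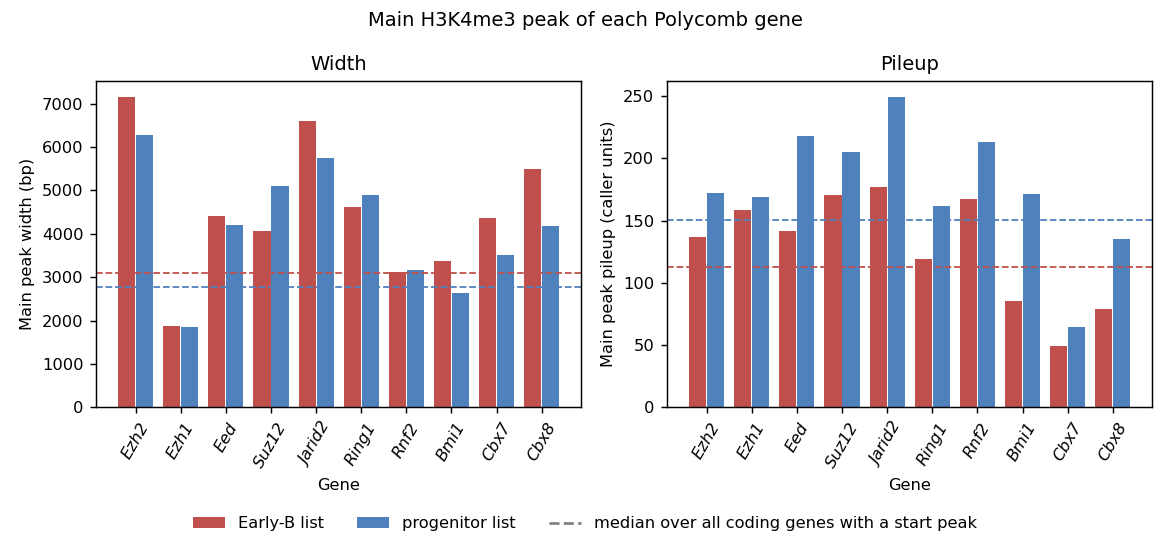
Width in bp (left) and pileup in the caller's units (right) of the start peak of each gene, with Early-B bars in red left of progenitor bars in blue and dashed lines at each list's median over all protein-coding genes with a start peak. Ezh2 is widest in both lists, Jarid2 has the highest pileup and Cbx7 the lowest in both. Pileup is to be read within a list only.

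The median width of the 10 start peaks was 4390 bp in the Early-B list and 4189 bp in the progenitor list, against 3099 bp and 2778 bp over all protein-coding genes with a start peak. Ezh1 lay below the median of all genes in both lists, and Bmi1 below it in the progenitor list. The median pileup of the 10 was 139 in the Early-B list, where that of all genes was 113, and 172 in the progenitor list, where that of all genes was 150.5. The order of the genes was much alike in both lists, with a Spearman rho over the 10 genes of 0.83 for width and 0.83 for pileup. Width and pileup were poorly related to each other across the 10 genes, with a rho of −0.12 for Early-B and 0.37 for progenitors. These correlations are across genes that share their libraries and are descriptions only.

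The start peak was wider in the Early-B list at 7 of the 10 genes and narrower at Suz12, Ring1 and Rnf2. Over the 11844 protein-coding genes with a start peak in both lists, 63.9% were wider in the Early-B list. The median ratio of widths was 1.1 for the 10 genes, with a range of 0.795 to 1.32, and 1.08 over all genes, of which the middle 90% ran from 0.629 to 2.41. At 6 of the 10 genes the Early-B peak held the whole progenitor peak, against 42.3% of all genes, and at Suz12 and Ring1 the progenitor peak held the Early-B peak, against 17.8%. The direction of the width difference at the 10 genes was thus near that at all genes.

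**Figure D3:**
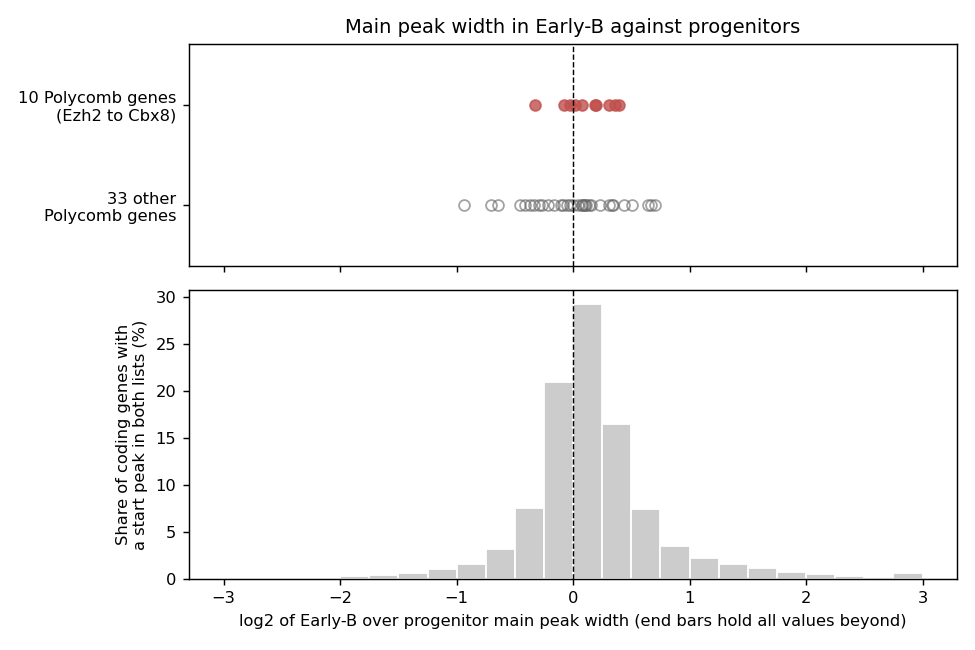
Log2 ratio of start peak width, Early-B over progenitor (x axis), for the 10 genes in red and 33 other Polycomb genes as open circles (top), and for all protein-coding genes with a start peak in both lists as a share in percent per bin (bottom). All 10 genes lie between ratios of 0.795 and 1.32, inside the bulk of all genes.

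Of the peaks in the 10 windows, 19 of the 32 in the Early-B list and 19 of the 22 in that of progenitors overlapped the other list by at least 1 bp. The 13 Early-B peaks with no partner, 40.6%, compare with 38.5% over all protein-coding windows, and the 3 progenitor peaks with no partner, 13.6%, compare with 21.2%. Most of them were weak. Of the 13, 7 had an authors' q above 0.05, as did 3 of the 3 progenitor peaks, whose −log10 p ran from 1.11 to 1.21. Such Early-B peaks stood at 5 genes (Ezh2, Jarid2, Bmi1, Cbx7 and Cbx8), and 30.6% of protein-coding genes have one. The progenitor peaks stood at Ezh1, Jarid2 and Cbx7, and 16.5% of protein-coding genes have one. At a −log10 p of at least 10, Early-B peaks with no partner were left at 2 genes, Jarid2 and Cbx7, against 7.69% of protein-coding genes.

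**Figure D4:**
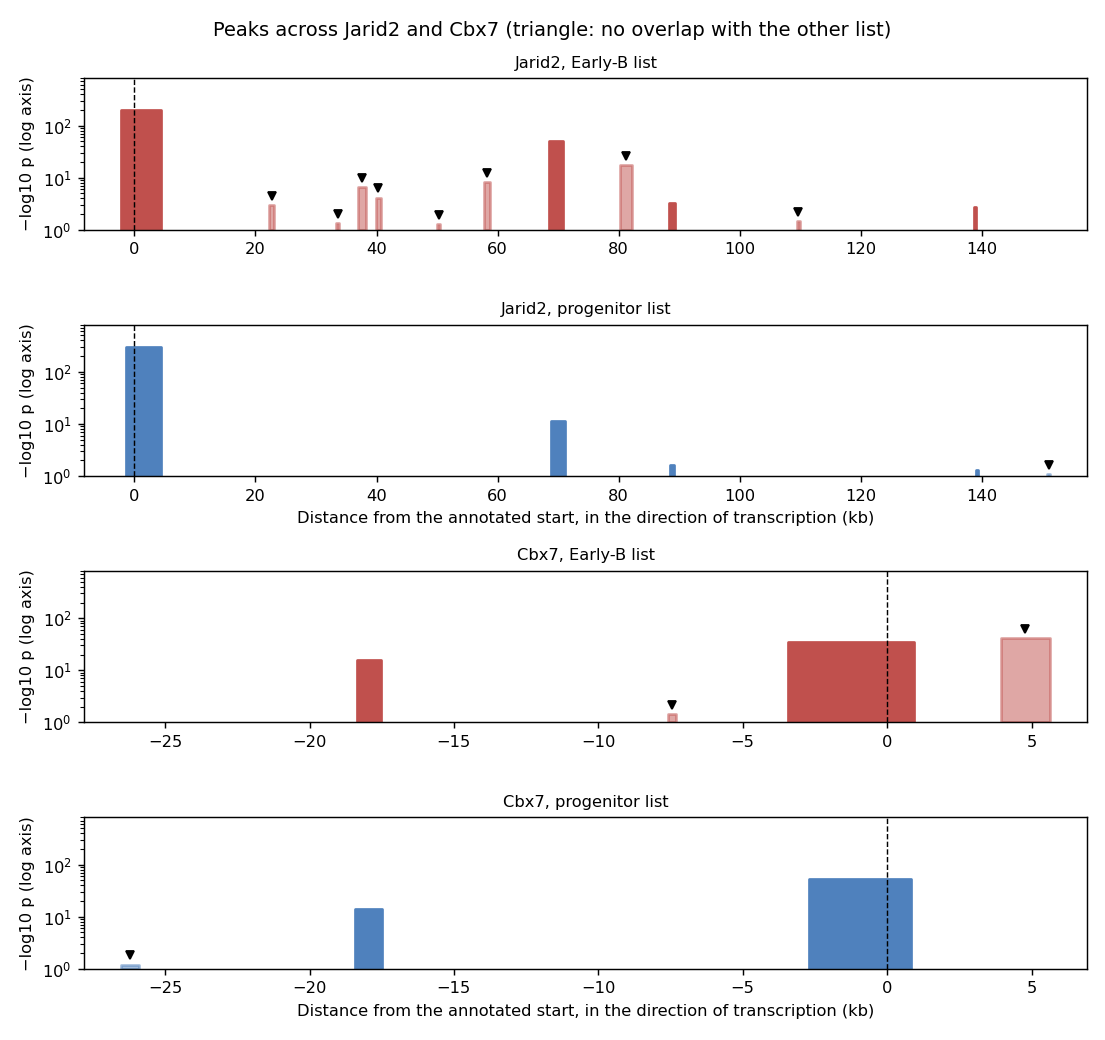
Peaks across Jarid2 (upper pair of panels) and Cbx7 (lower pair) by distance from the annotated start in kb (x axis) and the authors' −log10 p on a log axis, Early-B in red above progenitor in blue. Triangles mark peaks that met none of the other list, among them 8 of the 12 Early-B peaks at Jarid2, and the Early-B peak at Cbx7 with a −log10 p of 41.2. The others are an Early-B peak of 279 bp and a progenitor peak of 626 bp at Cbx7, and a progenitor peak of 582 bp at Jarid2.

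The labels were set against marker genes. All 6 B cell genes (Cd79a, Cd79b, Pax5, Blnk, Igll1 and Vpreb1) had a start peak in the Early-B list and 2 of them in the progenitor list, although Igll1 and Vpreb1 lie under the same Early-B peak of 18321 bp. All 6 also had a progenitor peak somewhere in the window. The start peak of Vpreb1 had a −log10 p of 72.9 for Early-B and 179 for progenitors. The Early-B peak covered the Vpreb1 start, whereas the progenitor peak lay upstream, within 1 kb of the start, without reaching it. Of the progenitor genes Gata2, Hlf, Lmo2 and Erg, 2 had one in Early-B cells and 4 had one in progenitors, Lmo2 only through an end of its span. These genes thus did not separate the lists cleanly. Erg went against the label, with a start peak of 6622 bp in the Early-B list and of 497 bp in the progenitor list. These lay at different annotated starts, and neither met a peak of the other list. At Gata2, the Early-B start peak of 1009 bp overlapped a weak progenitor peak of 616 bp (−log10 p 1.49). The progenitor start peak of Gata2, 953 bp wide, lay at its other annotated start and met no Early-B peak. For Lmo2 no start was annotated, and its start peak, in the progenitor list alone, was taken at an end of its span. That peak, 678 bp wide with a −log10 p of 5.44, lay just beyond the span. A strong shared peak inside Lmo2 was 3942 bp wide in the Early-B list (−log10 p 135) and 3695 bp in the progenitor list (215). OP9 stroma is another source of chromatin in the Early-B culture. All 5 stromal genes (Sparc, Postn, Col1a1, Col1a2 and Col3a1) had an Early-B start peak, with −log10 p between 1.25 and 12.4, and 2 of them a progenitor one, with 1.51 and 5.46. The strongest stromal peak was a further Early-B peak at Sparc, 1646 bp wide with a −log10 p of 35.0 and no progenitor partner. It lay at the end of the span away from the start, and the start peak of Sparc had a −log10 p of 7.48. The part of stromal chromatin in the Early-B peaks without a partner, at Jarid2, Cbx7 and elsewhere, was not tested. In such bulk chromatin, a mark in fewer cells and a weaker mark per cell cannot be told apart.

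Of 35 other Polycomb genes, 34 had a peak in both lists in the window and Asxl3, which encodes a partner of the H2A deubiquitinase Bap1, had none in either. Of the 33 with a start peak in both lists, 17 (51.5%) were wider and 16 narrower in the Early-B list, with a median ratio of 1.03. This nearly even split compares with 63.9% wider over all genes. The ratio was 0.979 over the 7 further PRC2 genes, 1.07 over the PRC1 genes and 0.969 over the genes of the opposing enzymes. At Pcgf5 the compared start peaks lay at different annotated starts, 2041 bp for Early-B and 2574 bp for progenitors. The progenitor peak at the same start as this Early-B peak was 2181 bp wide. The gene with the largest ratio was Phc3, a Polyhomeotic protein of PRC1, at 3318 bp in the Early-B list and 2033 bp in the progenitor list. Scmh1, a further PRC1 gene, had 4171 bp in the Early-B list and 2666 bp in the progenitor list.

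Bcor, a corepressor of variant PRC1, and Asxl1 had the smallest ratios. The Bcor start peak measured 2524 bp for Early-B against 4832 bp for progenitors, and that of Asxl1 4549 bp against 7427 bp. A further Early-B peak of 1427 bp (−log10 p 1.39) lay within 1 kb of the Asxl1 start peak. The progenitor peak overlapped both, so the Asxl1 ratio depends on this split. At Bcor the start peak was not the strongest, with −log10 p of 5.56 for Early-B and 31.0 for progenitors. The strongest Bcor peak went the other way, 6727 bp (−log10 p 49.1) for Early-B against 3250 bp (112) for progenitors. Most other shared Bcor peaks were narrower for Early-B. Epop, a PRC2 accessory gene, had 927 bp in the Early-B list and 1447 bp in the progenitor list. An Early-B peak without a partner was found at 12 of the 35 genes (34.3%), against 30.6% of all protein-coding genes. At a −log10 p of at least 10 it was found at 1 of the 35 (2.86%), against 7.69%. That gene was Kdm2b, which encodes the subunit that binds CpG islands, and it held 2 such peaks. They were 4347 bp wide at chr5:122914830-122919176, with a −log10 p of 16.7, and 1109 bp wide at chr5:122921153-122922261, with a −log10 p of 11.2. Auts2 was the one gene with a start peak in the progenitor list alone, 869 bp wide with a −log10 p of 8.11. Kdm2b, Auts2 and Pcgf5 were named after their values were seen.

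Of 3 cell cycle inhibitor genes known as Polycomb targets, Cdkn2a had 4 Early-B peaks and 1 progenitor peak. The gene has an upstream start, that of the Arf transcript, and a downstream start, that of Ink4a. The peak at the upstream start was 3544 bp wide with a pileup of 45.1 in the Early-B list (chr4:89292732-89296275), and 2329 bp wide with a pileup of 132 in the progenitor list (chr4:89294084-89296412). The other 3 Early-B peaks met no progenitor peak and had −log10 p of 32.9, 22.0 and 25.2. That of 22.0, chr4:89278884-89282841, covers the downstream start, where the progenitor list had no peak.

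The neighbouring Cdkn2b had a start peak of 946 bp with a pileup of 20.7 in the Early-B list, and of 1349 bp with a pileup of 81.1 in the progenitor list. It also had an Early-B peak of 1165 bp without a partner, with a −log10 p of 26.3. Cdkn1c had no Early-B peak in its window. In the progenitor list it had a peak of 691 bp at the end of its span, with a −log10 p of 2.60, and one of 528 bp with 7.60. The part of stromal chromatin in the Early-B peaks at Cdkn2a and Cdkn2b was not tested either.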

How the data were processed

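H3K4me3 ChIP-seq gave 1 deposited peak list per group, assigned to its group by matching its name with the sample titles. The submitters' processing notes name mm10 and GRCh38 as builds and, as tools, MACS 1.4.3 and Bowtie 1.1.2, without saying what each was used for. The columns resemble the broad-peak output of a newer MACS, so the version is unsure, and pileup, p and q may be values over a whole peak rather than at its summit. Whether replicates were pooled, how input entered and which caller settings applied: not given in the sources used here. Pileup is the authors' deposited signal of read coverage, and fold enrichment is the authors' deposited ratio of signal over background. The −log10 p and −log10 q columns deposited by the authors have damaged names and were recognised from their values. Peak length is in bp, as deposited. Because these are the authors' own values, they rank peaks within a list and do not measure change between lists.

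Peaks were joined to RefSeq gene spans and promoter starts of GRCm38.p6 by symbol, which carry no exons, so exon or intron position is not given. Coordinates count from 1. Computation used Python 3.11.15, numpy 2.4.6, pandas 2.3.3 and matplotlib 3.10.9, and the overlap code was tested on simulated data. With 1 list per group, no test between conditions was run. All 10 genes were named whatever their values. Of the other genes, those missing from either list and up to 4 in each direction by width ratio were named, over the 35 genes and the 3 targets together. One gene that this rule names is not reported here. The genes and lists were chosen with earlier results of these data known. The alternatives changed the peak threshold, the window, the overlap rule, the list length, the joining of peaks and the choice of start peak. The microRNA and Ago2 samples were not used here.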

Additional observations from a re-analysis of the deposited data

How the results depend on the processing

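Across 11 alternatives, 38 of 40 recomputed values stayed within 1.5 times of the reported one. The exceptions were the Early-B peaks in the windows, 32 as reported, which numbered 16 at a −log10 p of at least 10 and 21 when the Early-B list was shortened to 31414 peaks, the length of the progenitor list. The number of genes with a peak in both lists was 10 under every alternative run for it except when peaks within 1 kb of another gene's end were left out, where it was 8. The same 7 genes were wider in the Early-B list under all 5 alternatives run for that count. The thresholds and the list length could not change it, because every start peak had a −log10 p of at least 34.5. Joining could not either, because no other peak lay within 1 kb of a start peak. The widest peak in the window was a neighbour's at Bmi1 in both lists and at Ring1 in the progenitor list. No paired analysis was possible because each group has 1 peak list and no result comes from a test. Unknown depth and the permissive threshold limit what a peak found in 1 list alone can show.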
